A study of Mus musculus with 3 samples.

Results

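Corticosteroid signalling was described here through 10 genes: the corticosteroid receptors Nr3c1 and Nr3c2, the steroid enzyme Hsd11b1, the receptor co-chaperones Fkbp4 and Fkbp5, and the responsive or co-varying genes Zbtb16, Tsc22d3, Sgk1, Map3k6 and Sult1a1. They were picked by gene symbol out of the 56941 genes of the count table, and all 10 were found. The choice was made with the values of these libraries in view, so their levels and their spread between mice are given as a description. The tissue was brain microvascular fragments, pieces of small vessel freed from brain by mechanical and enzymatic dissociation, from adult wild-type C57BL/6J mice that received no stated treatment. There were 3 libraries of polyadenylated RNA, from 3 mice by the series' design text, and they form a single group (n = 3) with no control beside it. The labels give neither sex, exact age nor the time of day or manner of collection.

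Glucocorticoids cross the plasma membrane and bind the glucocorticoid receptor, which waits in the cytosol in a complex with the chaperone HSP90 and an immunophilin such as FKBP5 or FKBP4. The hormone-bound receptor enters the nucleus and binds DNA elements made of a pair of inverted arms, where it raises some genes and represses others, many inflammatory genes among the latter. In brain vessels glucocorticoids are known for tightening the endothelial barrier, and FKBP5, itself induced by the receptor, lowers the receptor's affinity for hormone.

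The DNA element bound by these receptors was found near a start site of Sgk1 and of Map3k6. RefSeq promoter windows on build GRCm38.p6, covering 250 bases before and 50 bases after an annotated start, were matched for 8 of the 10 members, all but Nr3c1 and Zbtb16, with 15 windows in all. They were searched on both strands for the receptor element's full palindrome (AGAACA, any 3 bases, TGTTCT), for its core (GNACA, any 3 bases, TGTNC), which the palindrome contains, and for the single arm AGAACA, which is part of the palindrome. The stretches below carry the core and are shown because they are the places in the members' windows where it occurred. Capitals mark the 15 bases that span the element.
Sgk1, chr10:21993641-21993775, plus strand: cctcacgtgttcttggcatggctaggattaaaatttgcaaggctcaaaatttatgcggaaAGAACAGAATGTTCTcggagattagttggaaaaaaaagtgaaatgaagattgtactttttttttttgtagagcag
Map3k6, chr4:133240576-133240710, plus strand: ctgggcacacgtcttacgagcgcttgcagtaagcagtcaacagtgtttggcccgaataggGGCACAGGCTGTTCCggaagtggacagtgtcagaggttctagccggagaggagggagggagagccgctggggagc
The Sgk1 element is the full palindrome and lies at bases -189 to -175, counting the base before the start as -1. The Map3k6 element lies at bases -182 to -168 and keeps only the core. Of the 15 member windows 2 held the core. Sgk1 had more windows than any other member, and only 1 of them held the core or the palindrome. Among all 32851 windows of this length, 156 (0.475%) held the core and 3 (0.009%) the full palindrome. The single arm is common, being present in 6233 of all windows (18.974%) and, among the members, in windows of Sgk1, Tsc22d3 and Sult1a1. A match describes the letters of a window and is not evidence of receptor binding, and enhancers farther away were not searched.

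A wider list held 29 other glucocorticoid-responsive genes, named from general knowledge but with earlier results of these data known. It gave core matches in 2 of its 26 genes with a window, beside 145 of all 27025 genes with one (0.537%). Nothing is read from this count, since the list was chosen with earlier results known. The 2 genes were Fam107a, a gene of actin-bundling protein, and Mt1, which encodes a metallothionein that binds zinc. Their stretches are shown for comparison with those of the members, with the element again in capitals.
Fam107a, chr14:8309824-8309958, minus strand: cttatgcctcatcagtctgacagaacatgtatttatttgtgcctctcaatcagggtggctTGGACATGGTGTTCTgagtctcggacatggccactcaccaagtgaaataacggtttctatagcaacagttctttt
Mt1, chr8:94178934-94179068, plus strand: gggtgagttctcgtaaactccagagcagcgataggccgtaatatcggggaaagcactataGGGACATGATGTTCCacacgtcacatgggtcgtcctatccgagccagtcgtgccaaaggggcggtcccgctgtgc
The genes that carry the core did not share a pattern over the libraries: Map3k6 and Fam107a were lowest in replicate 2, whereas Sgk1 and Mt1 were lowest in replicate 1.

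Depth ranged from 128428355 to 150449539 counts per library. Levels are given as CPM, counts scaled to a common effective library size, and the detection limit of 1 CPM in all 3 libraries was reached by 13211 genes. All 10 members were detected. The endothelial markers fixed for checking the tissue (10 of 10 detected) summed to 12550, 14810 and 15540 CPM in replicates 1, 2 and 3, pericyte markers (8 of 8) to 3929, 3942 and 3731 CPM, and microglia markers (8 of 8) to 6807, 5180 and 6323 CPM, so the fragments carried several cell types. In such bulk samples fewer cells of a type and less RNA per cell cannot be told apart.

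Replicate 2 stood apart from the other libraries in several transcripts outside the pathway. Xist, the RNA that coats the inactive X chromosome, had 6246, 1 and 4055 counts in replicates 1, 2 and 3. The Y-linked gene Ddx3y had 1, 6369 and 0 counts, and Uty, Kdm5d and Eif2s3y had 1794 to 2453 counts in replicate 2 and 0 in both other libraries. Replicate 2 thus held Y-linked transcripts and almost no Xist, and replicates 1 and 3 the reverse. Of the 7 anterior pituitary hormone genes listed, all but Lhb were highest in replicate 2, with Gh at 0.108, 1233 and 0.262 CPM. Lhb was low in every library, at 1.42, 1.22 and 0.965 CPM. Immediate early genes were highest in replicate 2 too. Globin transcripts were highest in replicate 1. With a single library of that kind, sex-linked transcripts, pituitary transcripts and whatever else was particular to replicate 2 cannot be told apart.

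**Figure D1:**
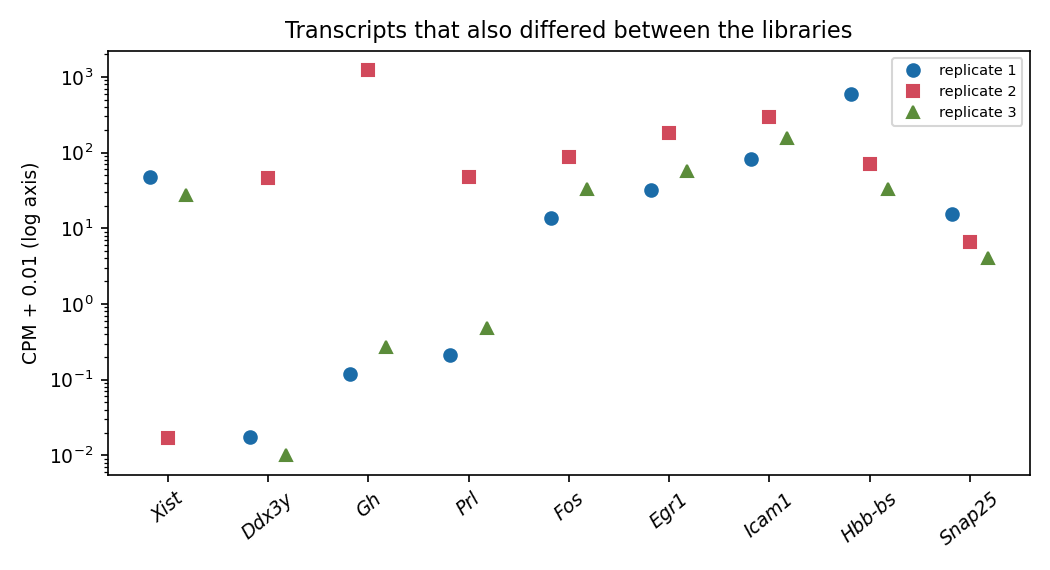
CPM + 0.01 on a log axis for 9 transcripts from outside the 10 members, 1 point per library coloured by replicate. Xist was near 0 in replicate 2 alone, while Ddx3y, Gh, Prl, Fos, Egr1 and Icam1 were highest there; Hbb-bs and the neuronal gene Snap25 were highest in replicate 1.

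The glucocorticoid receptor gene Nr3c1 was well expressed and varied between mice about as much as a typical gene. Of all detected genes, 55.2% spread less between the libraries. Nr3c1 had 297.7, 253.3 and 245.8 CPM in replicates 1, 2 and 3, or 265.6 ± 28.1 CPM (SD, n = 3). Replicate 1 was the highest and the others lay close together, a 1.21-fold spread from the lowest to the highest library. Nr3c2, the mineralocorticoid receptor gene, whose protein binds both aldosterone and glucocorticoids, had 36.7, 39.0 and 29.5 CPM, or 35.1 ± 4.99 CPM. Its lowest library was replicate 3. Per kilobase of exon length, Nr3c1 stood at 34.6 ± 3.65 CPM per kilobase and Nr3c2 at 5.42 ± 0.771 CPM per kilobase. The ratio of Nr3c1 to Nr3c2 on that scale was 6.83, 5.47 and 7.03, so the glucocorticoid receptor transcript was the more abundant in each mouse. Of the exon length of Nr3c2, 3.82% lies under exons of Gm10649 on the other strand, and the strand setting of the count is not given in the sources used here. Of the other receptors for steroid hormones, the estrogen receptor gene Esr1 had 5.97 ± 0.493 CPM, while Pgr and Esr2 were not detected at 1 CPM.

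Hsd11b1, whose enzyme regenerates active glucocorticoid from its inactive keto form inside cells, was the least abundant member. It had 5.92, 7.10 and 4.14 CPM, from 771, 992 and 601 counts. The exact 95% Poisson intervals of these values, 5.51 to 6.36, 6.66 to 7.55 and 3.82 to 4.49 CPM, did not overlap, so the libraries differed beyond counting error, which is all those intervals cover. Nr3c2 had the same order of libraries. So had the summed astrocyte markers at 1611, 1752 and 951 CPM (8 of 8 detected, 7 of them lowest in replicate 3). The summed choroid plexus markers had it as well, at 6839, 8145 and 5030 CPM (6 of 6 detected, all lowest in replicate 3). That sum follows Ttr, at 6329, 7759 and 4759 CPM, while the 5 other choroid plexus markers were highest in replicate 1. The part of both marker lists in the levels of Hsd11b1 and Nr3c2 was not tested. The opposing enzyme gene Hsd11b2, which inactivates glucocorticoid, was lower still at 0.513 ± 0.169 CPM. H6pd, which supplies the cofactor for Hsd11b1 in the endoplasmic reticulum, had 46.0 ± 0.484 CPM. Akr1c14, a steroid-reducing enzyme gene, had 80.4 ± 4.19 CPM, and Abcb1a, the P-glycoprotein pump that carries some glucocorticoids out of brain endothelium, led the list of 11 genes of steroid supply and metabolism at 1486 ± 161 CPM. Of that list 5 genes were detected. Cyp11b1 and Cyp21a1, enzymes of adrenal steroid synthesis, and the plasma carrier gene Serpina6 had 0 counts in all 3 libraries, which allows up to 0.0231 CPM in replicate 1 (3 counts, counting error only).

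The co-chaperone genes Fkbp4 and Fkbp5 showed unlike patterns. Fkbp4, whose protein links the receptor to transport towards the nucleus, had 229.4, 240.5 and 292.5 CPM, or 254.1 ± 33.7 CPM, a 1.28-fold spread with replicate 3 highest. Fkbp5 had 55.9, 19.9 and 69.7 CPM, or 48.5 ± 25.7 CPM. Replicate 2 lay far below both others, and the highest library exceeded it 3.5-fold. Per kilobase Fkbp4 stood above Fkbp5 in each library, with a ratio of 13.9, 41.0 and 14.2. That ratio was nearly equal in replicates 1 and 3 and about 3 times as large in replicate 2. No 100-base stretch of the transcripts of either gene occurred in another gene's transcripts in GENCODE M21, so reads shared between these relatives do not enter the comparison at that length.

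The rest of the receptor's chaperone machinery was abundant and varied about as much as a typical gene. All 14 listed genes were detected, with a median log2 range between libraries of 0.262 (the difference between the highest and the lowest library in log2(CPM + 0.5)), beside 0.254 over all detected genes. Hspa8, which encodes a constitutive HSP70 chaperone, had 1953 ± 178 CPM, Hsp90ab1 1911 ± 284 CPM and Hsp90aa1 287.4 ± 17.0 CPM. The widest of the list was St13, an HSP70-interacting co-chaperone gene, with a range of 0.43. Receptor coregulators were likewise even: all 13 were detected, with a median range of 0.258, and they included the chromatin remodeller Smarca4 at 158.9 ± 9.18 CPM and the corepressor gene Ncor1 at 153.8 ± 3.32 CPM. Nrip1, a further corepressor gene, had the widest range of these, 0.43.

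**Figure D2:**
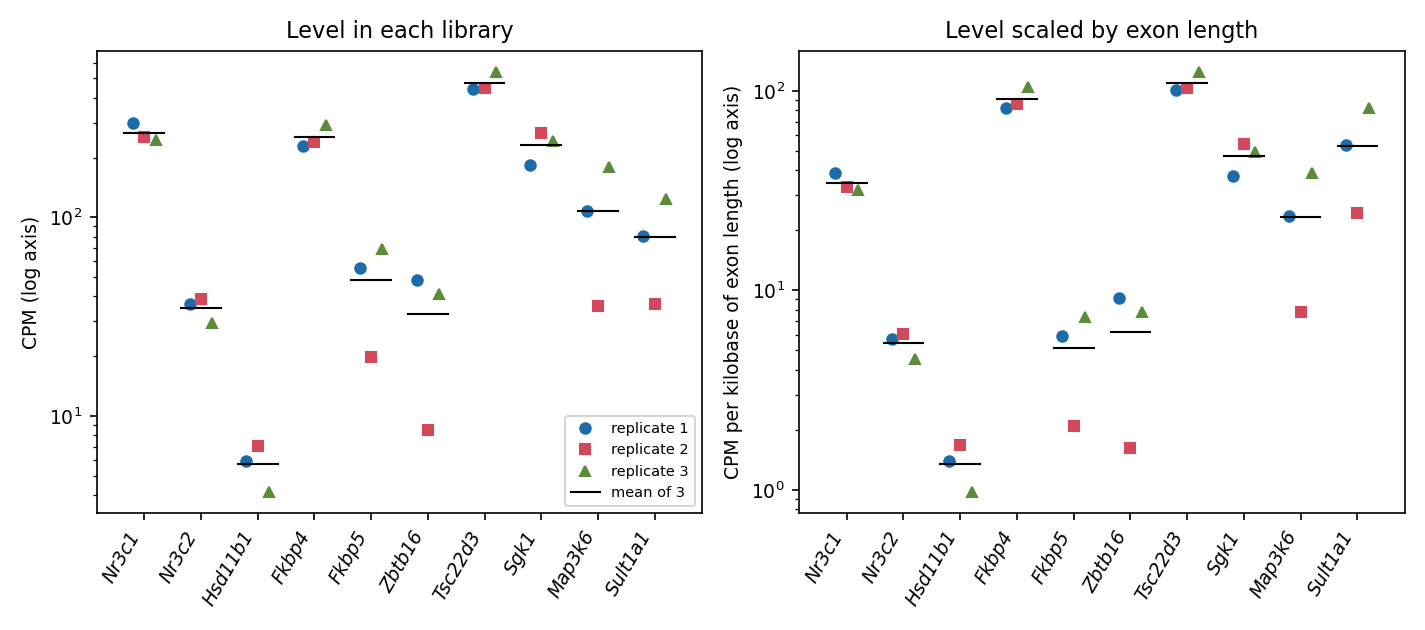
Level of the 10 members in each library (points) with the mean of 3 libraries (line), as CPM on the left and as CPM per kilobase of exon length on the right, both on log axes. Tsc22d3 was highest and Hsd11b1 lowest on both scales, and replicate 2 lay below the other libraries for Fkbp5, Zbtb16, Map3k6 and Sult1a1.

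Among the responsive genes, Zbtb16 and Map3k6 had the widest spreads between mice. Their order is not firm: the log2 range was 2.42 for Zbtb16 and 2.30 for Map3k6, but 1.97 and 2.17 with an offset of 5 CPM and 2.19 and 2.30 without replicate 1. Zbtb16 encodes PLZF, a zinc finger transcriptional repressor, and had 48.1, 8.56 and 41.0 CPM, or 32.6 ± 21.1 CPM. Replicates 1 and 3 lay near each other and replicate 2 far below, a 5.62-fold difference between the highest and the lowest library. The low value rests on 1196 counts, with an exact 95% Poisson interval of 8.08 to 9.06 CPM.

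Map3k6 encodes ASK2, a stress-activated MAP kinase kinase kinase, and had 108.0, 35.8 and 178.4 CPM, or 107.4 ± 71.3 CPM. Replicate 2 was lowest and replicate 3 highest, 4.99-fold apart, with replicate 1 between them. Sult1a1, a cytosolic sulfotransferase gene that conjugates phenols, followed the same order with 80.3, 36.7 and 123.2 CPM, or 80.1 ± 43.2 CPM, a 3.35-fold spread. Of the Sult1a1 exon length 4.05% lies under exons of Sgf29 on the other strand, and 1.75% of its 100-base stretches also occur in Gm6939.

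Tsc22d3 and Sgk1 had narrower ranges and were lowest in replicate 1. Tsc22d3 encodes GILZ, a leucine zipper protein that restrains inflammatory transcription, and was the most abundant member at 440.4, 446.2 and 540.5 CPM, or 475.7 ± 56.2 CPM. It ranked 279 of the 13211 detected genes by mean CPM. Its highest library exceeded the lowest 1.23-fold. Replicates 1 and 2 were almost equal for this gene, and scaling to the summed endothelial markers put replicate 2 lowest. Sgk1, the kinase gene that carries the full palindrome shown above, had 183.5, 265.9 and 242.0 CPM, or 230.5 ± 42.4 CPM. Replicate 1 was its lowest library and replicate 2 its highest, 1.45-fold apart.

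Per kilobase of exon length the order of the means was Tsc22d3 (110 CPM per kilobase), Fkbp4 (90.9), Sult1a1 (53.1), Sgk1 (47.0), Nr3c1 (34.6), Map3k6 (23.3), Zbtb16 (6.16), Nr3c2 (5.42), Fkbp5 (5.12) and Hsd11b1 (1.35). Neighbours in this order had overlapping ranges over the 3 libraries except for Fkbp4 above Sult1a1 and Fkbp5 above Hsd11b1. The first of these gaps was small, 82.1 CPM per kilobase in the lowest Fkbp4 library against 81.7 in the highest Sult1a1 library. Length scaling moved Sult1a1, with only 1507 bases of exon, from the sixth place by CPM to the third. Exon length here counts the bases of all annotated transcripts of a gene, which can exceed the transcript expressed, and the order depends on it.

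**Figure D3:**
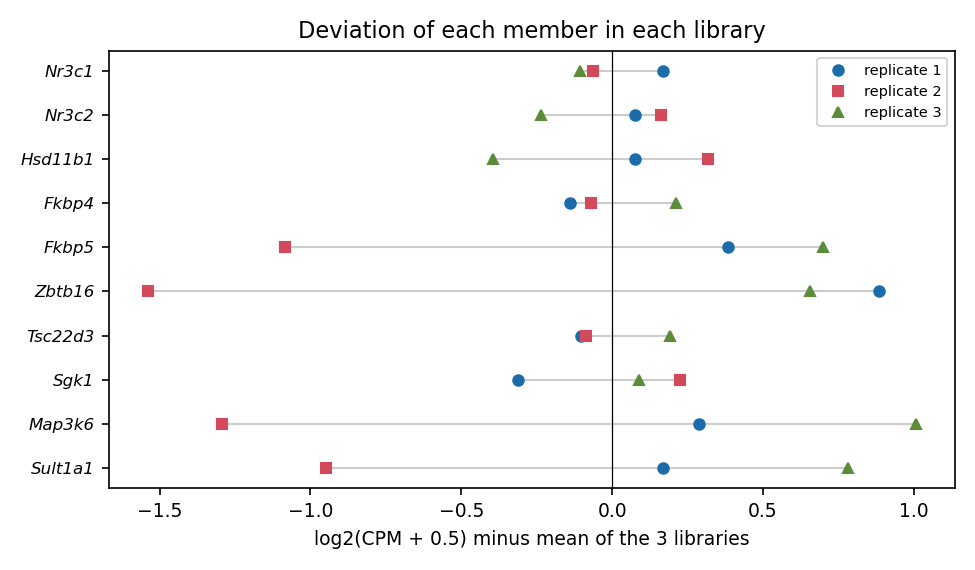
Deviation of log2(CPM + 0.5) from the mean of the 3 libraries (horizontal axis) for each member, 1 point per library coloured by replicate. For Fkbp5, Zbtb16, Map3k6 and Sult1a1 the point of replicate 2 lies far to the left; for the other 6 members the points stay within a range of 0.71.

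The members therefore fell into a wide and a narrow set. Fkbp5, Zbtb16, Map3k6 and Sult1a1 had log2 ranges of 1.78, 2.42, 2.30 and 1.73, and all 4 were lowest in replicate 2. Among all detected genes, 30.8% were lowest in replicate 2, 1.67% had a range of 1 or more (a difference of about 2-fold), and 0.53% met both conditions. The remaining 6 members ranged from 0.276 (Nr3c1) to 0.711 (Hsd11b1), beside quartiles of 0.157 and 0.391 over all detected genes. They were narrow only beside the 4 wide members, since Nr3c2 (0.399), Sgk1 (0.534) and Hsd11b1 lay above the upper quartile. Since the members were chosen with these values known, nothing is read from their counts against those shares.

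The 4 wide ranges rest on replicate 2. Without it they were 0.316 for Fkbp5, 0.229 for Zbtb16, 0.722 for Map3k6 and 0.615 for Sult1a1, and without replicate 3 they were 1.58 for Map3k6 and 1.12 for Sult1a1. Scaling each library to its summed endothelial markers, an alternative chosen after seeing the data, left ranges of 1.72 for Fkbp5, 2.66 for Zbtb16, 2.23 for Map3k6 and 1.66 for Sult1a1. Markers of 4 cell types were also mostly lowest in replicate 2: 8 of 8 for microglia, 4 of 5 for fibroblasts (summed to 141.9, 119.2 and 126.8 CPM), 4 of 6 for smooth muscle (5589, 4967 and 5723 CPM) and 4 of 6 for neurons (114.8, 92.8 and 109.7 CPM), beside 30.8% of all detected genes. In the other marker lists that held for 1 of 10 endothelial, 0 of 8 pericyte and 0 of 8 astrocyte markers. It held for 2 of 5 detected oligodendrocyte, 0 of 6 choroid plexus, 0 of 5 erythroid and 0 of 1 detected pituitary markers. The part of the cell types and of the sex-linked, pituitary and immediate early transcripts in the low values of replicate 2 was not tested.

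Single genes were also tested for more spread between the libraries than the dispersion trend allows, by edgeR's quasi-likelihood dispersion with Benjamini-Hochberg adjustment over 18087 genes. This test called 15 genes (0.0829%) at an adjusted p under 0.05. No member was among them (0 of 10); 4 members had an unadjusted p under 0.05, beside 937 of all 18087 genes (5.18%), and DESeq2 marked Fkbp5, Zbtb16, Map3k6 and Sult1a1 as dispersion outliers, beside 112 of all genes (0.619%). Nothing is read from these counts either, because the rule for members drew on the same libraries.

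**Figure D4:**
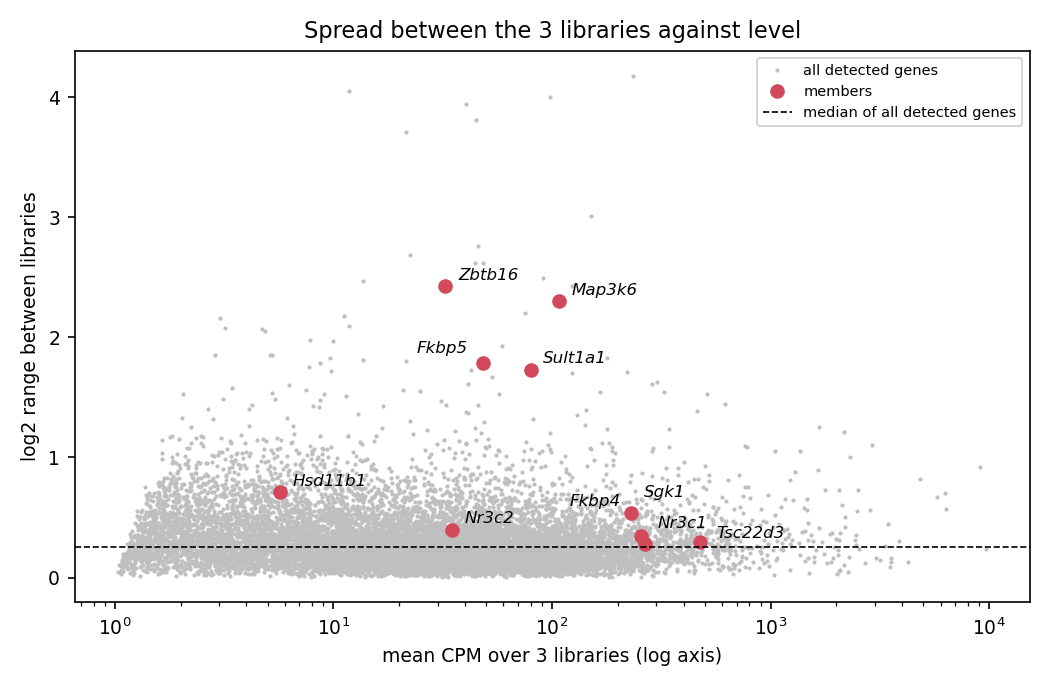
Log2 range between the 3 libraries (vertical axis) against mean CPM (horizontal log axis) for the 13211 detected genes (grey) and the 10 members (red). Zbtb16 (2.42) and Map3k6 (2.30) lie near the upper edge at their level, Fkbp5 and Sult1a1 somewhat below them, and Nr3c1 (0.276) and Tsc22d3 (0.295) close to the median of all detected genes (dashed line, 0.254).

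The 29 other glucocorticoid-responsive genes differed among themselves in which library was lowest. All 29 were detected, 15 of them lowest in replicate 2 and 13 lowest in replicate 1, beside 30.8% and 38.6% of all detected genes. The remaining gene was lowest in replicate 3, as 30.6% of all detected genes were. Their median log2 range was 0.636, beside 0.254 over all detected genes, and 8 had a range of 1 or more, beside 1.67% of all detected genes. Of these 8, 5 were lowest in replicate 2 (0.53% of all detected genes met both conditions): Angptl4, Cdkn1a, Pdk4, Fam107a and Hif3a, of which Hif3a was named after its values were seen. By edgeR's test 0 of the 29 varied beyond the trend at an adjusted p under 0.05, while 12 had an unadjusted p under 0.05 (5.18% of all genes) and DESeq2 marked 5 as outliers (0.619% of all genes). Over all pathway lists 0 of 101 tested genes were called by edgeR. The lists were chosen with earlier results of these data known, so nothing is read from their counts against the shares of all genes.

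Angptl4, an inhibitor of lipoprotein lipase, had 51.4, 25.9 and 99.7 CPM, and Cdkn1a, which encodes the cell cycle inhibitor p21, had 283.2, 175.1 and 513.3 CPM. Both were highest in replicate 3, as Map3k6 and Sult1a1 were. Pdk4, a kinase that restrains pyruvate oxidation, had 25.8, 11.8 and 30.0 CPM, Fam107a 377.6, 207.4 and 440.8 CPM, and Hif3a, a hypoxia-inducible factor subunit, 10.2, 3.96 and 11.9 CPM. The abundant transglutaminase gene Tgm2 had 812.2, 621.6 and 983.4 CPM.

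Other genes of the list were low in replicate 1, among them the remaining ones with a range of 1 or more, Dusp1, Cebpd and Lcn2. Cebpd had 44.8, 98.7 and 83.7 CPM, and Lcn2 had 23.4, 46.3 and 51.2 CPM. Dusp1, a phosphatase of MAP kinases that is both a glucocorticoid target and an immediate early gene, had 243.8, 705.8 and 580.2 CPM, and the small GTPase gene Rhob had 838, 1474 and 1369 CPM. Sgk1 among the members was ordered in this way too. Glul, the glutamine synthetase gene and the most abundant of the list, was almost level at 2231, 2295 and 2227 CPM.

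**Figure D5:**
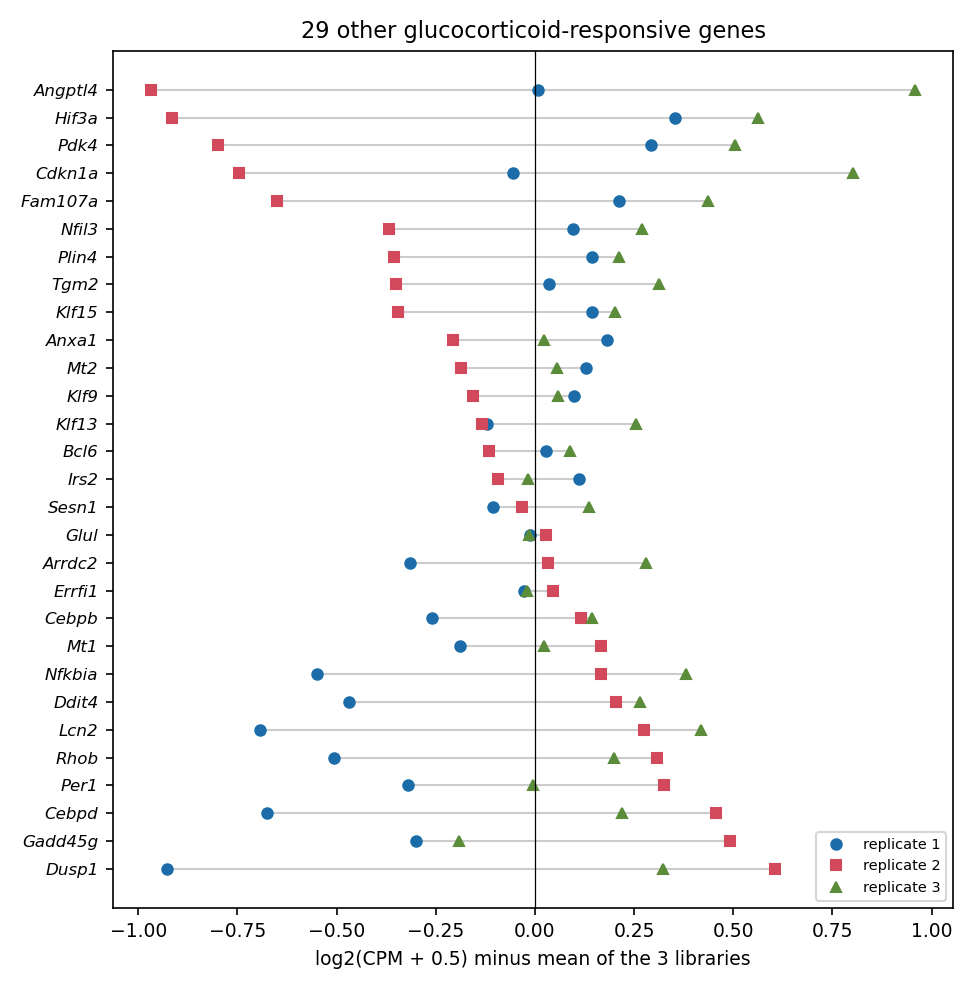
Deviation of log2(CPM + 0.5) from the mean of the 3 libraries (horizontal axis) for the 29 listed genes, ordered by replicate 2, 1 point per library. Angptl4, Hif3a, Pdk4, Cdkn1a and Fam107a are lowest in replicate 2 and Dusp1 is highest there; 15 of the 29 have their lowest value in replicate 2.

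Immediate early genes and the detected ones of the inflammatory genes that glucocorticoids are known to repress were highest in the library where Fkbp5, Zbtb16, Map3k6 and Sult1a1 were lowest. All 10 immediate early genes had their highest value in replicate 2, as 28.7% of all detected genes did, 8 of them with a log2 range of 1 or more, a combination shared by 0.537% of all detected genes. Fos, a subunit of the AP-1 factor, had 13.7, 86.6 and 32.6 CPM, Egr1 32.2, 184.2 and 57.8 CPM, and Nr4a1, an orphan nuclear receptor gene, 42.0, 228.6 and 98.3 CPM. Of the 12 inflammatory genes 5 were detected, all 5 highest in replicate 2. The leukocyte adhesion genes Icam1 and Vcam1 had 83.2, 297.7 and 156.4 CPM and 270.9, 709.4 and 407.8 CPM, and the chemokine gene Cxcl10 had 2.01, 9.91 and 2.65 CPM. The 7 below the detection limit were mixed: 3 were highest in replicate 2, 3 in replicate 1 and 1 in replicate 3. Of those highest in replicate 2, Cxcl1 had 0.584, 3.66 and 2.18 CPM and Sele 0.484, 3.33 and 0.965 CPM. Their spreads, 6.26-fold and 6.89-fold, were the largest of the 12 genes, but rest on only 76 and 63 counts in replicate 1. By edgeR's test 0 of the 10 and 0 of the 12 varied beyond the trend at an adjusted p under 0.05, with 9 and 6 at an unadjusted p under 0.05 (5.18% of all genes) and 5 DESeq2 outliers in each list (0.619% of all genes). The lowest library was replicate 1 for 8 of the 10 immediate early genes and for 4 of the 5 detected inflammatory genes. Zbtb16 was highest in that library, but Fkbp5, Map3k6 and Sult1a1 were highest in replicate 3. The opposite order thus held for replicate 2, but not over all 3 libraries for these members. Both lists were chosen with earlier results known, so nothing is read from their counts. Their part in the members' low values was not tested.

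Genes of sodium transport that the mineralocorticoid receptor is known to control in kidney were detected in 5 of 7 cases. The kinase gene Wnk1 had 413.1 ± 22.3 CPM, and Atp1b1, which encodes a beta subunit of the sodium pump, had 119.1 ± 24.7 CPM. The epithelial sodium channel genes Scnn1b and Scnn1g were not detected at 1 CPM, and Scnn1a had 2.05 ± 0.501 CPM. The widest log2 range of the detected ones was 0.583, that of Atp1b1, which was lowest in replicate 3.

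Close relatives of the members were measured beside them, and none of the 7 that were detected had a log2 range of 1 or more, beside 1.67% of all detected genes. Fkbp1a and Fkbp8, which encode smaller and membrane-bound FK506-binding proteins, had 309.3 ± 34.4 CPM and 198.9 ± 19.4 CPM. Map3k5, which encodes ASK1, had 25.1 ± 3.40 CPM, beside the 4.99-fold spread of its relative Map3k6. Tsc22d1 was more abundant than Tsc22d3 by CPM, at 2159 ± 79.8 CPM, and Sgk3 had 35.8 ± 4.61 CPM. Sult1b1 and Sult1d1 had 0 counts in all 3 libraries.

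Genes with the most similar pattern over the 3 libraries were sought among 9165 genes at 10 CPM or more in every library, by the root mean square difference of the log2 deviations. With 3 libraries many genes match a mild pattern and few a steep one. For Fkbp5 the nearest was Coro2a, a coronin gene of the actin cytoskeleton, with 58.6, 24.0 and 77.3 CPM and a difference of 0.0814; no other gene came within 0.1. Next were Tbc1d4, a Rab GTPase-activating protein gene, at 180.2, 81.2 and 238.2 CPM, then Sult1a1, Pdk4 and Map3k6. The nearest to Zbtb16 were Fkbp5 (0.392), Map3k6 (0.426), Coro2a (0.472), the homeobox gene Lhx6 (0.498) and Tbc1d4 (0.522), none of them close. Members were chosen with the values of these libraries in view, so nothing is read from members lying near each other.

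Nr3c1 and Tsc22d3, in contrast, had patterns shared by many genes. Within 0.1 of Nr3c1 lay 1927 genes, the nearest being Tmem135, Ttc19, Mtdh, Jpt2 and Prkar2b, and within 0.1 of Tsc22d3 lay 2429 genes, with Dnpep, Pdcd7, St6galnac4, Fam20c and Nagpa first.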

How the data were processed

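The authors deposited whole-number counts per gene for 3 libraries, made from 400 ng of RNA with a stranded polyA kit and read as pairs of 150 bp, per the labels' protocols. GRCm39 was the build, and Subread 1.4.6-p5 with featureCounts did the counting, per the submitters' processing notes. For the aligner, annotation release and strand setting: not given in the sources used here. Replicates were mapped by title and library name, and 0 columns were left unmapped. CPM used TMM factors of edgeR 4.0.16 (R 4.3.3); depth was 128428355 to 150449539 counts. Spread was tested in an intercept-only quasi-likelihood model on the 18087 genes kept by filterByExpr, checked on simulated data; DESeq2 1.42.0 was an alternative. P-values ask whether a gene's spread between these samples exceeds the dispersion trend, and do not measure the size of that spread. Exon lengths came from GENCODE M21 (GRCm38) by symbol, promoter windows from RefSeq (GRCm38.p6); both differ in build from the counts, so no position was read from a genome. Exon length was the merged exons of all annotated transcripts of a gene. The members and all lists were chosen with earlier results of these data known. Tsc22d4 was not matched by symbol. Text names the 10 members, the 3 most abundant and the 3 widest detected genes of each list, the marker genes and the 5 genes nearest in pattern; other names were chosen after their values were seen. A few listed genes that this rule would name are not reported here.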

Additional observations from a re-analysis of the deposited data

How the results depend on the processing

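The test of spread between mice called 15 genes by edgeR; it called 173 with no filter on low counts, 0 with a robust prior (where 785 had an unadjusted p under 0.05), and 112 were DESeq2 outliers. Leaving out each replicate in turn gave 7 to 80 genes, with 7 without replicate 1, 80 without replicate 2 and 33 without replicate 3. Of the 101 tested genes of the pathway lists 0 were called (27 at an unadjusted p under 0.05); 17 were called with no filter, 15 were DESeq2 outliers, and leaving out a replicate gave 0 to 5, with 5 without replicate 2 and 4 without replicate 3. Fkbp5, Zbtb16, Map3k6 and Sult1a1 were called with no filter, and Zbtb16 and Map3k6 without replicate 3. Member levels moved by less than their SD in all 50 alternatives. For those that left out a replicate this was nearly bound to happen, because dropping 1 of 3 values shifts their mean by less than the SD. Nothing is read from those. In 64 of 70 alternatives the ratio of a member's highest to its lowest library changed by a factor under 1.5; the 6 others are those of the wide members without replicate 2 or 3. Narrow log2 ranges still moved in proportion, as that of Nr3c1 from 0.276 to 0.583 with endothelial scaling and 0.048 without replicate 1. The listed genes lowest in replicate 2 numbered 15 of 29, beside 30.8% of all detected genes, then 13 with total counts, beside 21.65%, and 16 scaled to endothelial markers, beside 36.27%. That scaling moved the median of replicate 2 against replicate 1 over all detected genes from 0.015 to -0.221 (log2), and it also put Fkbp4 and Tsc22d3 lowest in replicate 2. With the full palindrome 1 member kept a match, and 4 members kept their rank per kilobase. No paired analysis was possible because there is a single group. Replicates of 3 cannot be screened for outlying samples, and only 1 library held Y-linked transcripts.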
